A study of Mus musculus with 6 samples.

Results

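The genes described here encode the mitochondrial respiratory chain and its ATP synthase in mouse bone marrow cells that carried a retroviral MN1 vector or the empty vector. Members were chosen by name: genes whose single annotated symbol starts with Nduf, Uqcr, Atp5 or Sdh, or with Cox followed by 4, 5, 6, 7 or 8, together with Cyc1 and Cycs. This gave 95 genes of the 19938 single-named genes on the array, of which 76 encode subunits, 11 encode assembly factors and 8 are tissue-restricted isoforms. By complex, 41 belong to complex I, 8 to complex II, 9 to complex III, 1 is cytochrome c, 19 belong to complex IV and 17 to complex V. The names Cox7c, Ndufb4, Ndufb4b and Ndufs5-ps stand only on probe sets with several gene names and were not measured as genes here. No filter on low values was applied, so all 95 genes entered the comparison.

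Marrow cells were transduced with a murine stem cell virus vector, either with MN1 or empty, and reporter-positive cells were sorted 72 h later. The sample labels name GFP as the reporter, whereas the design text names YFP. Each group had 3 one-colour Affymetrix whole-transcript arrays, and the transductions were made in 3 independent experiments per the design text. The labels give no strain, age or sex of the mice and do not state the species of the MN1 cDNA. In both groups the vector is expressed in whichever marrow cells it entered, so each array is a mixture of cell types.

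The respiratory chain sits in the inner mitochondrial membrane. Complex I oxidises NADH and complex II oxidises succinate; both pass electrons to ubiquinone. Complex III hands them on to the small soluble protein cytochrome c, and complex IV uses them to reduce oxygen to water. Complexes I, III and IV pump protons, and complex V, the ATP synthase, makes ATP as protons flow back. A few subunits are encoded by mitochondrial DNA and the others by nuclear genes, whose promoters often carry sites for the nuclear respiratory factors NRF1 and GABP. No gene symbol of the mitochondrially encoded subunits was found among the single-named probe sets, so all values below are of nuclear genes.

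The deposited values are log2 expression values made with RMA, and array medians lay between 5.82 and 6.01. The array number, 3 per group, limits the precision. Mn1 measured 6.47, 6.62 and 6.08 in the MN1 arrays and 5.34, 5.41 and 4.80 in the empty vector arrays. Its signal was thus higher in 3 of 3 MN1 arrays, with an adjusted p of 0.584 by limma. Because the species of the cDNA is not stated, vector and endogenous Mn1 cannot be told apart in this signal. The 7 genes that define blood cells were all measured, and their mean level ran from 11.34 to 11.59 in the MN1 arrays and from 11.34 to 11.52 in the empty vector arrays. Marker levels differed between arrays. The mean of 16 granulocyte genes ran from 9.02 to 9.98 with MN1 and from 8.88 to 11.96 with the empty vector, and that of 11 monocyte and macrophage genes from 10.22 to 10.96 and from 9.10 to 10.11. Lower granulocyte values may come from fewer granulocytes or from less RNA of these genes per cell, which cannot be told apart in bulk samples. The 3 measured Y-linked genes averaged 7.11, 6.12 and 7.57 in MN1 replicates 1 to 3 and 5.78, 3.78 and 7.04 in empty vector replicates 1 to 3, so all 3 genes were higher with MN1 on average, by a median of 1.52 on the log2 scale, with overlapping groups.

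Respiratory chain transcripts differed little between MN1 and empty vector cells. Of the 95 genes, 49 were on the higher and 46 on the lower side with MN1, and their log2 differences had a median of 0.01, against a median of -0.03 over all genes tested. That near-zero median was 0.04 after median-centring the arrays, with 60 genes higher, and -0.03 after quantile normalization, with 38 higher. The share of genes higher with MN1 was 51.6% of the members, 43.3% of all genes and 63.3% of genes with a mean level above 8, whose median was 0.07. No member passed an adjusted p of 0.05 (limma, Benjamini-Hochberg over all genes), where 0.0% of all genes did; the smallest adjusted p among members was 0.591. At an unadjusted p under 0.05 stood 0 of the 95 members. The background share was 8.4% over all genes, with 4.17% higher and 4.23% lower, and 7.61% over the 6690 genes with a mean level above 8, with 6.28% higher and 1.33% lower.

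The values of the groups were fully separated for 8 members, or 8.42%, with MN1 above for 5 (5.26%) and below for 3 (3.16%). The share over all genes was 16.0%, with MN1 above for 5.71% and below for 10.3%. Over genes with a mean level above 8 it was 10.4%, with MN1 above for 8.61% and below for 1.75%. No member differed by as much as 2-fold, where 1.37% of all genes and 2.09% of genes above 8 did.

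The 95% intervals bound the size of these differences. For 94 of the 95 members the interval of the difference lay within 1 of 0 on the log2 scale, that is within a 2-fold change either way, and for 64 it lay within 0.5 of 0. These are 98.9% and 67.4% of the members. The same shares were 88.5% and 51.4% over all genes and 83.2% and 37.7% over genes with a mean level above 8. The exception to the first bound was Cox6a2, whose interval ran from -0.56 to 2.26. The remaining 94 genes differed by between -0.34 and 0.25. These intervals cover the spread between 3 arrays per group and do not show that the levels were equal.

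**Figure D1:**
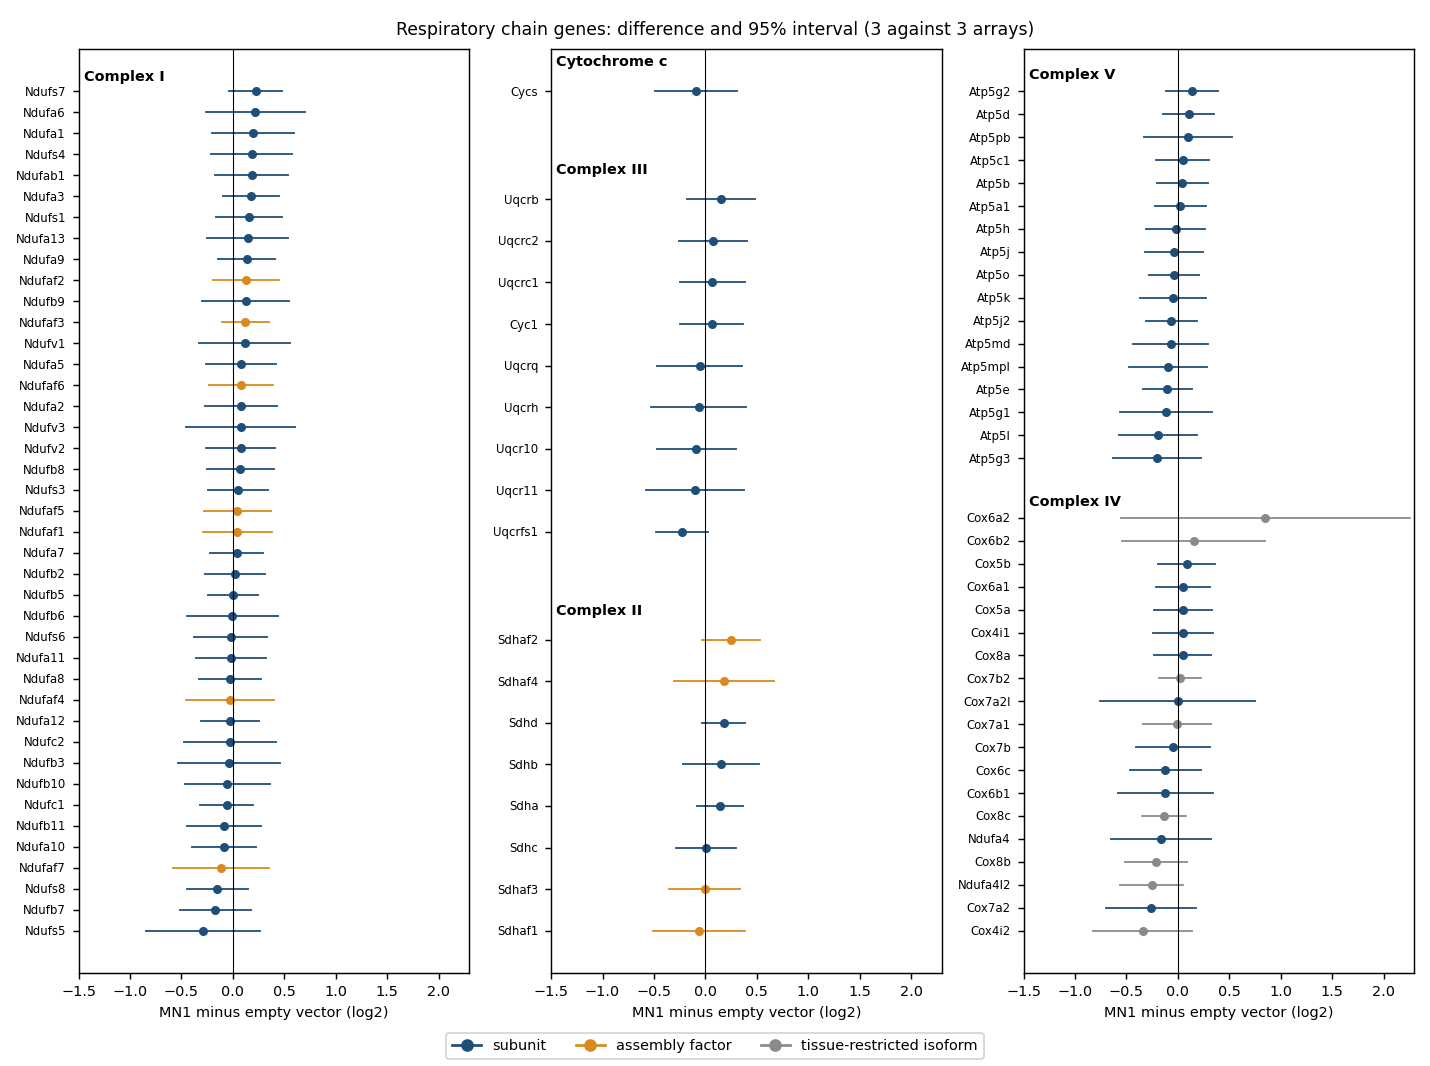
Log2 difference of MN1 minus empty vector (x axis) for all 95 members by complex, with the 95% interval from limma as a line (3 against 3 arrays). Every interval crosses 0, and only that of Cox6a2 reaches beyond 1.

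**Figure D2:**
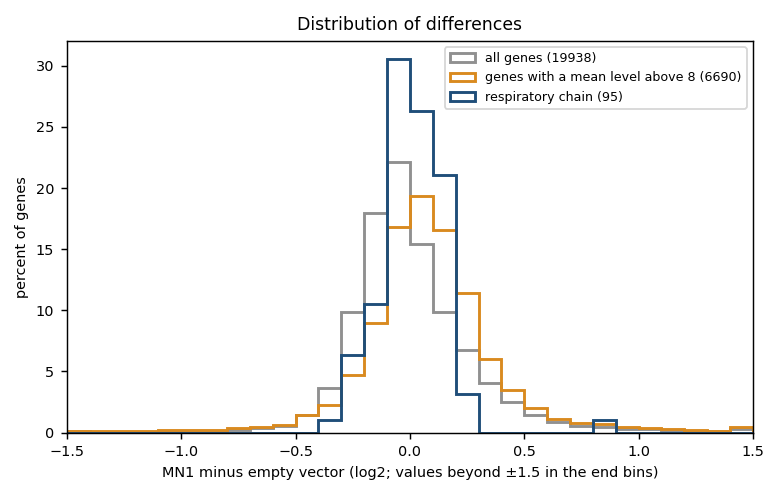
Percent of genes (y axis) by log2 difference of MN1 minus empty vector (x axis, bins of 0.1) for all 19938 genes, the 6690 genes with a mean level above 8 and the 95 members. The members lie close to 0, with Cox6a2, at 0.85, as the only one beyond 0.4 in either direction.

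In complex I, which feeds electrons from NADH into the chain, 20 of 34 subunits had a positive and 14 a negative log2 difference; the median was 0.04 for the subunits and for all 41 complex members alike. After quantile normalization the median of the 41 was -0.02. The subunit with the highest difference was Ndufs7, an iron-sulfur protein near the ubiquinone site. It measured 10.17, 10.22 and 10.09 in MN1 replicates 1 to 3 and 10.04, 9.79 and 9.99 in empty vector replicates 1 to 3, a difference of 0.22 ± 0.11 (SE). All 3 MN1 values lay above the empty vector values, by 0.05 at the nearest pair. The accessory subunits Ndufa6 and Ndufa1 followed at 0.22 ± 0.20 and 0.20 ± 0.17, both with overlapping groups. At the other end stood Ndufs5, an accessory subunit on the intermembrane side, with 6.35, 7.08 and 6.94 with MN1 and 6.96, 7.38 and 6.90 with the empty vector, a difference of -0.29 ± 0.23. Its MN1 mean was pulled down by replicate 1. Ndufb7 differed by -0.17 ± 0.14 and Ndufs8, a carrier of iron-sulfur clusters, by -0.15 ± 0.12. The 3 Ndufv genes, of the NADH-oxidising tip, differed by 0.08 to 0.12, and the 9 Ndufb genes, of the membrane arm, by -0.17 to 0.12. No complex I subunit besides Ndufs7 had groups that did not overlap.

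Complex II, succinate dehydrogenase, also belongs to the citric acid cycle and is encoded by nuclear genes alone. Its 4 subunits all had a positive log2 difference, 0.15 at the median; quantile normalization turned Sdhc to -0.02. Sdha, the flavoprotein that oxidises succinate, measured 10.29, 10.26 and 10.39 with MN1 and 10.10, 10.22 and 10.20 with the empty vector, a difference of 0.14 ± 0.09 (SE). Sdhd, a membrane anchor, measured 10.51 in each of the 3 MN1 arrays and 10.26, 10.37 and 10.36 in the empty vector arrays, a difference of 0.18 ± 0.09. For both genes the groups did not overlap, although the gap was only 0.04 for Sdha. Sdhb, the iron-sulfur subunit, differed by 0.15 ± 0.15 and Sdhc, the other membrane anchor, by 0.01 ± 0.12, both with overlapping groups. The assembly factor Sdhaf2, which helps attach FAD to Sdha, measured 9.35, 9.16 and 9.39 with MN1 and 8.89, 9.12 and 9.14 with the empty vector, again without overlap, and differed by 0.25 ± 0.12. Non-overlap with MN1 above was found for 3 of the 8 complex II genes, where the share over all genes was 5.71% and over genes with a mean level above 8 was 8.61%. None of these passed the test (adjusted p of 0.594 for Sdhaf2 and Sdhd and 0.638 for Sdha, limma). The other assembly factors differed by 0.18 ± 0.20 for Sdhaf4, -0.06 for Sdhaf1 and -0.01 for Sdhaf3, and a second probe set of Sdhaf4 gave -0.29.

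The members also share promoter letters that the choice by symbol did not use. RefSeq promoter windows of build GRCm38.p6, from 250 bases before to 50 after the start, were given for 78 of the 95 members, in 83 windows. On either strand, the NRF1 motif, spelled GCGCA, then any base, then GCGC, was in 25.3% of these windows and in 4.6% of all 32851 windows. The ETS motif CCGGAAG, which GABPA binds, was in 25.3% against 8.86%, and the YY1 motif AAGATGGC in 10 of the 83 windows against 2.75% of all. The other motifs searched were ERR (AAGGTCA, 8.43% against 4.72%), the E-box (CACGTG, 8.43% against 7.15%), the CCAAT box (42.2% against 37.4%), the GC box (GGGCGG, 47.0% against 35.7%) and the TATA box (TATAAA, 10 of the 83 windows against 13.6% of all). The GC box letters can overlap other G- and C-rich motifs. The median G and C content was 58.7% in the members' windows and 52.7% in all windows, and its part in these shares was not tested. The 20 members with the NRF1 motif had log2 differences with a median of 0.02, against -0.00 for the 58 without it. For the ETS motif the medians were -0.03 with and 0.02 without, for YY1 0.09 and -0.01, for ERR -0.10 and 0.00, for the E-box -0.04 and -0.00, for the CCAAT box -0.02 and 0.02, and for the TATA box -0.01 and -0.00. For the GC box they were 0.05 with, where 24 of 38 members were higher, and -0.04 without, where 14 of 40 were. None of these splits was tested.

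The bases directly before the starts of Sdha, Sdhd, Sdhb and Atp5g2 are shown because complex II had the most members without overlap and Atp5g2 was the highest ATP synthase gene. Capitals mark the NRF1 motif, or in Sdhd the ETS motif, and each sequence stops where another annotated gene begins or at 100 bases. They are read 5′ to 3′ on the gene's strand.
Sdha (chr13:74350241-74350316, minus strand): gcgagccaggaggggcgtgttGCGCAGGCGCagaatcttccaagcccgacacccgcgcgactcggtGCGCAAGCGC
Sdhd (chr9:50603850-50603900, minus strand): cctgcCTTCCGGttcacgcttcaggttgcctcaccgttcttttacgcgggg
Sdhb (chr4:140961171-140961270, plus strand): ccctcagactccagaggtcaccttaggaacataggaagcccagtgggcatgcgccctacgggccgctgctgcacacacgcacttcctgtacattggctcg
Atp5g2 (chr15:102671048-102671147, minus strand): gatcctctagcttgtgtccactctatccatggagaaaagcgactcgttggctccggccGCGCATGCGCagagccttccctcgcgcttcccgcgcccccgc

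The Sdha sequence holds the NRF1 motif at 2 places, 55 and 10 bases before the start, and a further copy lies 98 bases before it. Outside the printed bases, the Sdhd window holds the NRF1 motif 79 bases before the start and the ERR motif after it. Sdhb holds none of the NRF1, ETS, YY1 and ERR motifs in the printed bases, but its window holds the ETS motif after the start. Sdha and Sdhd are each separated by a short gap, of 76 and 51 bases, from the neighbouring gene on the other side. The neighbour of Sdha, Ccdc127, differed by 0.25 ± 0.15 (SE, log2), and the neighbour of Sdhd, Timm8b, which encodes a mitochondrial import chaperone, measured 8.55 in both groups. These neighbours were looked up after the values of Sdha and Sdhd were seen.

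In complex III, log2 differences were positive for 4 of 9 subunits and negative for 5, with a median of -0.06. The sign of this median depended on single arrays: it was 0.07 without MN1 replicate 1, 0.01 without MN1 replicate 3 and 0.05 without empty vector replicate 3. Uqcrfs1 is the Rieske iron-sulfur protein. Among the 76 subunit genes, which leave out the tissue-restricted isoforms, only Uqcrfs1 had all MN1 arrays below the empty vector arrays. It measured 7.85, 8.04 and 8.04 with MN1 and 8.13, 8.30 and 8.19 with the empty vector, a difference of -0.23 ± 0.10 (SE) with an adjusted p of 0.591 (limma). The small subunits Uqcr11 and Uqcr10 differed by -0.10 ± 0.20 and -0.09 ± 0.16. A second probe set of Uqcr11 gave -0.39. Uqcrb, a ubiquinone-binding subunit, differed by 0.15 ± 0.14 and by 0.08 to 0.15 over its 3 probe sets, and the core proteins Uqcrc1 and Uqcrc2 by 0.07 ± 0.13 and 0.08 ± 0.14. Cyc1, the haem protein cytochrome c1, differed by 0.06 ± 0.13. Cytochrome c itself, Cycs, which also triggers apoptosis when it leaves the mitochondrion, measured 10.16, 10.71 and 10.66 with MN1 and 10.55, 10.53 and 10.71 with the empty vector, a difference of -0.09 ± 0.17. Its MN1 replicate 1 was the lowest of the 6 values and the others lay close together. Its 3 probe sets gave differences of -0.09, -0.04 and 0.17. The last of these came from a dim probe set, with means of 5.42 with MN1 and 5.25 with the empty vector.

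In complex IV, cytochrome c oxidase, 5 of 11 ubiquitous subunits lay on the higher side and 6 on the lower, and the median log2 difference over all 19 complex members was -0.01, or 0.02 after median-centring. Cox5b, Cox6a1 and Cox5a differed by 0.09 ± 0.12, 0.05 ± 0.11 and 0.05 ± 0.12 (SE). Cox7a2, Ndufa4 and Cox6b1 were at the other end with -0.26 ± 0.18, -0.17 ± 0.20 and -0.12 ± 0.19. Ndufa4 was first assigned to complex I and is now counted with complex IV. The groups overlapped for all 11 genes.

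Some complex IV subunits have isoforms tied to particular tissues. Cox6a2, the heart and skeletal muscle form, measured 8.70, 7.22 and 8.99 in MN1 replicates 1 to 3 and 6.93, 6.99 and 8.43 in empty vector replicates 1 to 3. Its range over the 6 arrays, 2.06, exceeded that of 97.3% of all genes and was the largest among members. The groups overlapped, the difference was 0.85 ± 0.58 (SE), and the adjusted p was 0.653 (limma). The 3 arrays above 8 were MN1 replicates 1 and 3 and empty vector replicate 3. On those arrays the Y-linked genes averaged 7.04 to 7.57, against 3.78 to 6.12 on the other arrays. The mean of 10 of 11 B lineage genes on the list was 7.14 to 7.27, against 5.84 to 6.42. Of these, Cd79a, Cd79b, Pax5 and Ebf1 were each highest on those 3 arrays. Vpreb1, Igll1, Dntt, Blnk and Il7r were not, with Vpreb1 at 5.12 on empty vector replicate 3. Rag1 was at 4.67 both there and on MN1 replicate 2. The part of the Y-linked and B lineage genes in the Cox6a2 values was not tested. Cox6a1, the ubiquitous partner of Cox6a2, did not share the Cox6a2 pattern and ran only from 10.61 to 10.92.

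Cox6b2, the testis form of Cox6b1, measured 8.61, 7.76 and 8.18 with MN1 and 8.40, 7.55 and 8.14 with the empty vector. The groups overlapped over nearly their whole ranges, and the difference was 0.15 ± 0.29 (SE). Cox4i2, known from lung and hypoxia, differed by -0.34 ± 0.20 against 0.05 ± 0.12 for Cox4i1. All MN1 values lay below the empty vector values for Ndufa4l2, a hypoxia-inducible relative of Ndufa4, with 5.81, 5.76 and 5.66 against 5.88, 6.23 and 5.88, and for Cox8c, a testis form, with 6.28, 6.36 and 6.37 against 6.42, 6.52 and 6.47. Their differences were -0.25 ± 0.13 and -0.14 ± 0.09. Both genes are among the dim members. Cox8b, Cox7a1 and Cox7b2 differed by -0.21 ± 0.12, -0.01 ± 0.14 and 0.02 ± 0.08, against 0.05 ± 0.12 for Cox8a, -0.26 ± 0.18 for Cox7a2 and -0.05 ± 0.15 for Cox7b, whose second probe set gave -0.12.

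Cox7a2l, which helps join complexes III and IV into supercomplexes, had the same group mean of 10.05 on rounding but a wide spread within each. It measured 10.04, 9.56 and 10.55 with MN1 and 9.68, 9.94 and 10.53 with the empty vector. The replicate 3 arrays were the highest of both groups. A second probe set gave a difference of 0.14.

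**Figure D3:**
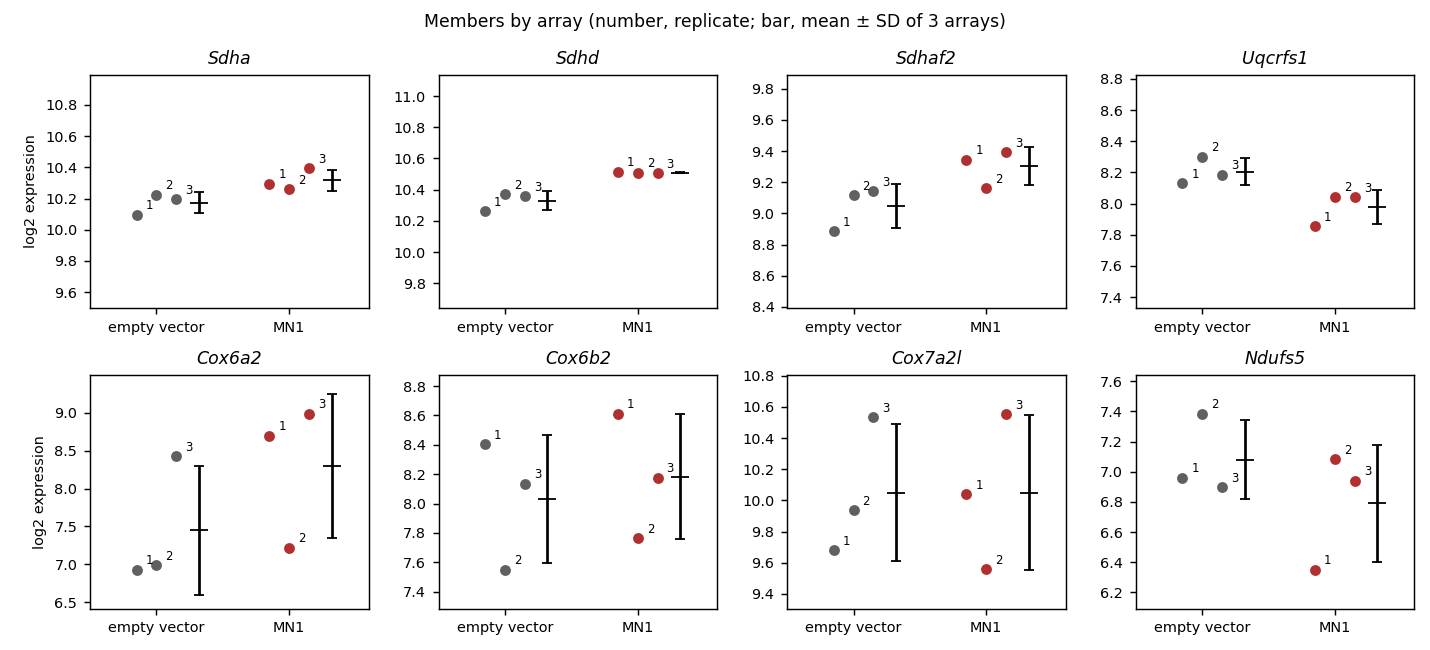
Log2 expression (y axis) of 8 members on each array, with the replicate number beside each point and the mean ± SD of 3 arrays as a bar; the y ranges differ between panels. In the upper row the groups do not overlap and their means differ by 0.14 to 0.25 in either direction. The nearest values lie closer, as in Sdhaf2 with 9.16 for MN1 and 9.14 for the empty vector. In the lower row the spread within a group is wider than the difference between groups.

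In complex V, the ATP synthase, log2 differences were positive for 6 of 17 subunits and negative for 11, with a median of -0.04, and the groups overlapped for all of them. The subunits Atp5a1 and Atp5b, which carry the nucleotide-binding sites, differed by 0.02 ± 0.10 and 0.04 ± 0.10 (SE). Atp5b measured 12.57, 12.79 and 12.81 with MN1 and 12.66, 12.66 and 12.72 with the empty vector, so the groups were nearly superposed. The highest differences were those of Atp5g2 at 0.13 ± 0.10, Atp5d at 0.10 ± 0.10 and Atp5pb at 0.10 ± 0.18. The lowest were those of Atp5g3 at -0.21 ± 0.18, Atp5l at -0.19 ± 0.16 and Atp5g1 at -0.12 ± 0.19. The genes Atp5g1, Atp5g2 and Atp5g3 encode the same mature subunit of the membrane rotor behind different import sequences, and their differences ran from positive to negative. That of Atp5g1 rested on single arrays: it was -0.015 without MN1 replicate 3, -0.025 without MN1 replicate 1, -0.028 without empty vector replicate 1, and -0.31 when MN1 replicate 2 was left out. The 95% intervals of Atp5g1, Atp5g2 and Atp5g3, -0.56 to 0.33, -0.12 to 0.39 and -0.64 to 0.22, overlap. For Atp5g2 all 3 probe sets lay between 0.11 and 0.14, for Atp5g1 both gave -0.12, and for Atp5l all 6 lay between -0.19 and -0.14.

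The assembly factors build the complexes without staying in them. Of the 11 in the list, 7 lay on the higher and 4 on the lower side, and the median log2 difference was 0.04. Besides Sdhaf2 and Sdhaf4, the largest difference was that of Ndufaf2 at 0.13 ± 0.13 (SE). Ndufaf3 had groups that did not overlap, with 8.08, 8.23 and 8.10 against 8.07, 8.05 and 7.94, and differed by 0.12 ± 0.10; the nearest pair was 0.01 apart.

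The members varied more within the MN1 group than between the groups. Over the 87 genes that are not tissue-restricted isoforms, the mean deviation from each gene's own average was -0.12, 0.10 and 0.04 in MN1 replicates 1 to 3 and -0.05, -0.02 and 0.05 in empty vector replicates 1 to 3. MN1 replicate 1 was the lowest array for 34 of the 95 members, or 35.8%, and for 25.2% of all genes. MN1 replicate 2 was the highest array for 31 members, or 32.6%, and for 11.6% of all genes. In complexes I, III and V the mean deviation of MN1 replicate 1 was -0.13, -0.14 and -0.12, and that of MN1 replicate 2 was 0.11, 0.13 and 0.10. Complex II did not share this order: its deviations were 0.00, 0.02 and 0.14 in the MN1 arrays. Leaving out MN1 replicate 1 left 66 of 95 members higher with MN1, with a median of 0.05, and leaving out MN1 replicate 2 left 42 higher, with a median of -0.03. The mean of 14 proliferation genes was 9.04 on MN1 replicate 1 and 9.91 to 10.33 on the other arrays, and the megakaryocyte and monocyte marker means were highest on that array, at 11.46 and 10.96; their part in the low respiratory chain values there was not tested.

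**Figure D4:**
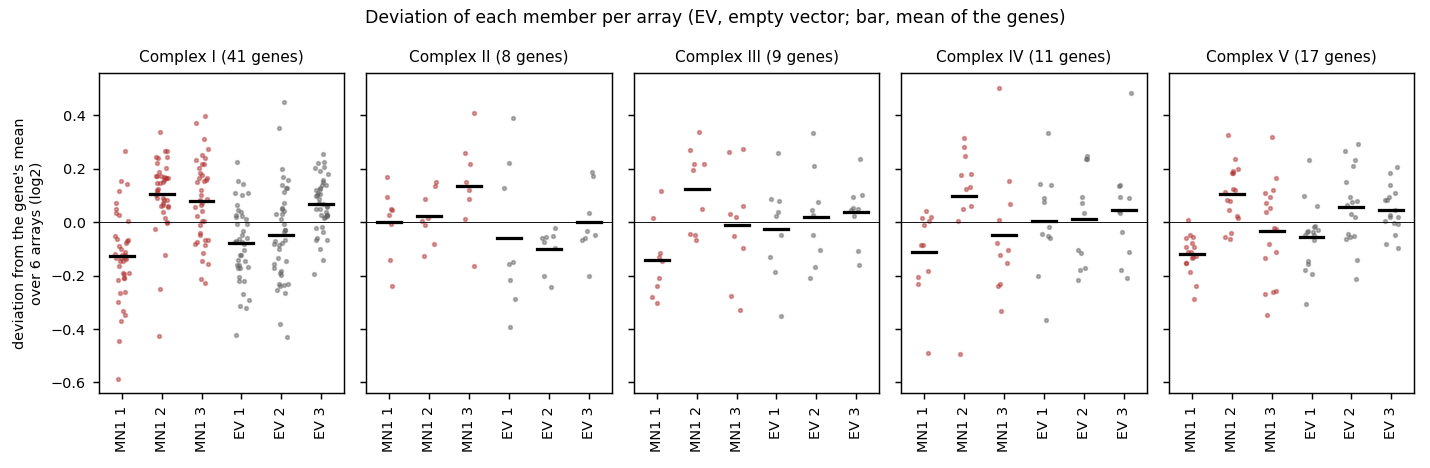
Deviation of each member from its own mean over the 6 arrays (y axis, log2) by array (x axis; EV, empty vector), in 1 panel per complex, without tissue-restricted isoforms; bars are means over the genes. MN1 replicate 1 lies low and MN1 replicate 2 high in complexes I, III, IV and V, while the group averages lie close together.

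Other mitochondrial genes were read from the same fit. Among 31 measured assembly factors outside the symbol rule, 24 had a positive and 7 a negative log2 difference, with a median of 0.14. That is 77.4% higher, where the share was 43.3% of all genes and 63.3% of genes with a mean level above 8. Of the 31, 5 were higher at an unadjusted p under 0.05, where 4.17% of all genes and 6.28% of genes with a mean level above 8 were. Tmem126b, a complex I assembly factor, measured 7.59, 7.54 and 7.67 with MN1 and 7.21, 7.21 and 6.997 with the empty vector, a difference of 0.46 ± 0.10 (SE). Uqcc3, a complex III assembly factor, differed by 0.44 ± 0.11 without overlap. Cox20 and Uqcc2, assembly factors of complexes IV and III, stood lowest with -0.30 ± 0.15 and -0.18 ± 0.19, and for Cox20 all MN1 values lay below. No gene of the list passed adjustment over all genes (adjusted p of 0.584 for Tmem126b and Uqcc3, limma).

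Of 16 citric acid cycle genes, 9 lay higher (56.2%) and 7 lower, with a median of 0.01 on the log2 scale and 0 at an unadjusted p under 0.05 by limma. The share higher was 43.3% of all genes and 63.3% of genes with a mean level above 8. The share at an unadjusted p under 0.05 was 8.4% and 7.61% of these. Dlat and Dld, of the 2-oxoacid dehydrogenase complexes, differed by 0.22 ± 0.13 and 0.19 ± 0.18 (SE), and Idh3a and Mdh2, a pair of NADH-producing dehydrogenases, by -0.32 ± 0.29 and -0.14 ± 0.16. The 77 mitochondrial ribosomal protein genes had a median of 0.02, with 48 higher (62.3%, near the share of genes above 8) and 29 lower. Only 1 had an unadjusted p under 0.05, below both background shares, Mrpl42 at 0.63 ± 0.25. Mrpl45 differed by 0.30 ± 0.34, Mrpl47 by -0.39 ± 0.19 and Mrpl28 by -0.27 ± 0.16. Among 16 carrier and membrane genes the median was 0.02; Opa1, which fuses inner membranes, differed by 0.29 ± 0.09 without overlap, Atpif1, the inhibitor of the ATP synthase, by 0.25 ± 0.18, Immt by -0.14 ± 0.17 and the import pore gene Tomm40 by -0.26 ± 0.25.

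The 17 genes that regulate mitochondrial biogenesis had log2 differences with a median of 0.03, 10 above (58.8%) and 7 below 0. At an unadjusted p under 0.05 by limma stood 0 of them, where 8.4% of all genes did. The share above 0 was 43.3% of all genes and 63.3% of genes with a mean level above 8. The transcription factor genes Nrf1, Gabpa and Yy1 differed by 0.04 ± 0.15, -0.05 ± 0.10 and 0.14 ± 0.10 (SE). Gabpb1, the partner of Gabpa, differed by 0.29 ± 0.20 and Tfam, the mitochondrial DNA packaging factor, by 0.20 ± 0.28. At the low end Ssbp1 differed by -0.11 ± 0.17 and the coactivator gene Pprc1 by -0.09 ± 0.22. The groups overlapped for all 17 genes.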

How the data were processed

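The authors deposited log2 expression values per probe set, which RMA produced per the submitters' processing notes, from 200 ng of total RNA per the labels. The RMA software is not named in the labels, and the values themselves showed the log2 scale. Of 35557 probe sets, 21789 carry 1 gene symbol in the platform annotation of 2016. Where a gene had several probe sets (19 members), the brightest by its mean over the 6 arrays stood for the gene. No dim probe set was removed, and scanner files were not analysed here.

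Groups came from sample titles. The test was limma 3.58.1 in R 4.3.3 (lmFit, eBayes, two-sided, Benjamini-Hochberg over 19938 genes, threshold 0.05, no block). The fit was also run on simulated data. The changes planted there were larger than any member difference, so that run does not show how well small differences are detected. Intervals are 95% and use the moderated SE with 6.43 degrees of freedom. Each difference is the MN1 mean less the empty vector mean. The labels do not state whether arrays of a group came from separate animals, so p-values measure the spread between these arrays. The Y-linked means differed within a group, at 5.78, 3.78 and 7.04 in empty vector replicates 1 to 3. What this says of the donors was not tested.

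Members and lists were chosen with earlier results of these data known. Named are the 3 highest and 3 lowest subunits per complex, all of complex II, Cyc1, Cycs, the isoforms with partners, Atp5g1 to Atp5g3, the 3 most different assembly factors, and 2 per direction in each related list. The sex-linked genes, the B lineage genes, Atp5a1, Atp5b, Cox7a2l, Ndufaf3, Sdhaf1, Sdhaf3, Ndufv1 and the regulators Nrf1, Gabpa and Yy1 were named after values were seen. Promoter windows are from RefSeq. Processed pseudogenes of these families may share probes.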

Additional observations from a re-analysis of the deposited data

How the results depend on the processing

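No alternative brought any member past the threshold: the count of members and of all genes past an adjusted p of 0.05 by limma was 0 with all arrays, at a threshold of 0.1, and under every other setting run, while 906 to 1980 of all genes and 0 to 2 members had an unadjusted p under 0.05. The median over all members, 0.01 with all arrays, ran between -0.03 and 0.05. For complex I it ran from 0.0082 to 0.14 and for complex V from -0.11 to 0.019 with 1 array left out. For complex II the median was 0.085 after quantile normalization and 0.076 when each gene's probe sets were averaged, and 0.075 to 0.18 with 1 array left out. The median log2 difference of the members of complex III was -0.024 after median-centring, -0.11 after quantile normalization and -0.021 with array weights, and ran from -0.037 to 0.069 with 1 array left out. The median log2 difference of the members of complex V was -0.0072, -0.083 and -0.0033 under these settings. For complex IV the median was 0.024 after median-centring, -0.047 after quantile normalization and -0.12 to -0.018 with 1 array left out. The replicate number was not stated to mark an experiment, and the deviations of same-numbered arrays correlated at 0.13, 0.07 and 0.32 across genes, so the numbers were not taken to pair the arrays. With the replicate block, 0 members and 0 genes passed by limma (1980 genes at an unadjusted p under 0.05 against 1675 without). The block cannot change a log2 difference in this balanced layout, so the unchanged medians are no check.

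Of the 65 genes named by rule, 24 changed sign under some setting, 23 of them with 1 array left out and 6 under another setting. Other than by leaving out an array, Cox5a became -0.0048, Cox8a -0.0066 and Sdhc -0.017 after quantile normalization, Cox7a1 became 0.024 after median-centring, and Cycs became 0.013 and Sdhaf4 -0.056 when probe sets were averaged. With 1 array left out, the log2 difference ran from -0.034 to 0.23 for Atp5pb, -0.042 to 0.11 for Cox4i1, -0.030 to 0.12 for Cox5a, -0.023 to 0.13 for Cox6a1, -0.086 to 0.36 for Cox6b2, -0.12 to 0.074 for Cox7a1, -0.19 to 0.058 for Cox7b, -0.032 to 0.11 for Cox8a, -0.032 to 0.15 for Cyc1 and -0.19 to 0.085 for Cycs. It ran from -0.37 to 0.035 for Ndufa4, -0.065 to 0.091 for Sdhc, -0.24 to 0.043 for Uqcr10, -0.29 to 0.014 for Uqcr11, -0.022 to 0.15 for Uqcrc1 and -0.041 to 0.15 for Uqcrc2. Outside the members it ran from -0.57 to 0.016 for Idh3a, -0.25 to 0.033 for Mdh2, -0.061 to 0.50 for Mrpl45, -0.30 to 0.099 for Pprc1, -0.20 to 0.044 for Ssbp1, -0.0078 to 0.51 for Tfam and -0.31 to 0.025 for Uqcc2. These ranges are given only for genes named by rule, not for those named after their values were seen. The causes were not tested.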

Other observations

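Of the 19 members with several probe sets, 15 gave the same sign on all of them and 4 did not: Cox7a2l, Cycs, Ndufc1 and Sdhaf4. The median gap between a gene's highest and lowest probe set was 0.05 on the log2 scale and the largest, in Sdhaf4, was 0.47. Leaving out MN1 replicate 2, Cox6a2 measured 1.39 ± 0.49 higher (SE, log2), with an adjusted p of 0.509 by limma. Under the same setting Atp5g3 differed by -0.38 ± 0.14. Without MN1 replicate 1, Ndufv1, which carries the NADH site of complex I, differed by 0.32 ± 0.11, with an adjusted p of 0.736 by limma. Without empty vector replicate 3, Ndufa1 differed by 0.37 ± 0.10 and Cox7a2 by -0.41 ± 0.16. After quantile normalization Uqcrfs1 differed by -0.32 ± 0.11. These were the only member values with an unadjusted p under 0.05 by limma under any setting.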
